A study of Homo sapiens with 4 samples.

Results

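The genes described here are 10 known targets of the transcription factor p53, namely CDKN1A, GADD45A, SFN, BBC3, PMAIP1, BAX, FAS, MDM2, TIGAR and SESN1, in HCT116 cells, an established human colorectal carcinoma line. Each gene was given as a span on genome build hg19, rounded to 1 kb, and every peak that overlapped the span or the 2 kb on either side of it was taken. This gave 16 of the 17887 TAF3 peaks, 11 of the 17975 H3K4me3 peaks and 44 of the 61456 RNAPII peaks in the deposited lists. The study made 4 chromatin immunoprecipitation sequencing (ChIP-seq) libraries from unmodified HCT116 monolayers, 1 each for TAF3, H3K4me3, RNAPII and input DNA. The labels name no drug, stress or other treatment, so the peaks describe the genes in growing cells, and these libraries do not measure RNA. With 1 library per antibody there are no replicates, no test was made and no p-value is given. The cell type was taken from the labels and was not checked against marker genes here.

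The p53 protein binds short response elements in or near its target genes after DNA damage and other stress, and turns on genes that halt the cell cycle, kill the cell, repair damage or adjust metabolism. The basal level of these targets differs from gene to gene. Transcription starts when the general factor TFIID recognises a promoter and RNA polymerase II (RNAPII) joins it in the preinitiation complex. TAF3 is a TFIID subunit whose PHD finger binds histone H3 trimethylated at lysine 4 (H3K4me3), the mark of active promoters. The series title links this binding to the assembly of the preinitiation complex and to selective gene activation, and the question put to these genes was where the 3 kinds of peak lie and how strong they are.

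The promoters of the members differ in sequence, and the stretches below are shown because the members range from many CG dinucleotides to few, and the place of the TAF3 summit is set beside this further on. Each is the 150 bases before an annotated start, read 5′ to 3′ on the strand of the gene, from RefSeq on build GRCh38.p14, with CG dinucleotides in capitals. For MDM2, which has a constitutive upstream promoter and a p53-responsive promoter inside its first intron, both are given.
PMAIP1: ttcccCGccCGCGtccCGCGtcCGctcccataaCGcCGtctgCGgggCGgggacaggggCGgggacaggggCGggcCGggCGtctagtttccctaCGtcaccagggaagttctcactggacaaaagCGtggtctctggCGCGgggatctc
TIGAR: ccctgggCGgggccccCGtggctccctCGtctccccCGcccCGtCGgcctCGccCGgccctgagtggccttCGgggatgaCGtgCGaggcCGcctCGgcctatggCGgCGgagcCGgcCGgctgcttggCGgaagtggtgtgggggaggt
CDKN1A: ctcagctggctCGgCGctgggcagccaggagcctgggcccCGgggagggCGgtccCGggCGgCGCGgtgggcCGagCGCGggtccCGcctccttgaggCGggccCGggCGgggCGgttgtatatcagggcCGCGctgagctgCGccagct
MDM2, upstream start: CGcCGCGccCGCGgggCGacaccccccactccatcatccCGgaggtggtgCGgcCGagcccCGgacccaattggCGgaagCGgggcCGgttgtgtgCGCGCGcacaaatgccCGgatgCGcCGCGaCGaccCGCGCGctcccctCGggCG
MDM2, intronic start: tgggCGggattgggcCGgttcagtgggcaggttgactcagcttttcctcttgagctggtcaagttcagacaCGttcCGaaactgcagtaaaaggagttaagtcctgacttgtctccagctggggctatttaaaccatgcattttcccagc
BBC3: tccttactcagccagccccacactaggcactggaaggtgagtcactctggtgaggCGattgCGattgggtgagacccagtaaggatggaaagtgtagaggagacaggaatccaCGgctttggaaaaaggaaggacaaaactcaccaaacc
SFN: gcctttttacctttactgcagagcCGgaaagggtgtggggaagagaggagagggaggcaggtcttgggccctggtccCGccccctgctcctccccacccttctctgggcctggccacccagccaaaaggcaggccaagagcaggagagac

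The RefSeq table held 16 promoter windows for 9 of the 10 members, each of 300 bases, 250 before the start and 50 from it on. The windows held 42 CG dinucleotides at PMAIP1, 43 at TIGAR, 29 at CDKN1A and 39 at the upstream start of MDM2, against a median of 14 over the 35116 windows of that length in the table. At the intronic MDM2 start there were 21, at SFN 7 and at BBC3 5. The letters TATAAA, searched on both strands, were in 0 of the 16 windows and in 11.5% of all windows. The letters CATG, the usual core of each part of a p53 response element, were in 4 of the 16 (both windows at the intronic MDM2 start, which overlap, 1 at FAS and 1 at SESN1) and in 54.9% of all windows. Such a match does not mark a binding site, and these windows are too short to hold distant elements.

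All 10 genes carried a TAF3, an H3K4me3 and an RNAPII peak, and every gene kept at least 1 of each in the authors' filtered lists. Of the peaks found, 12 of 16 TAF3 peaks, 11 of 11 H3K4me3 peaks and 20 of 44 RNAPII peaks passed the authors' filter (fold enrichment above 5 and false discovery rate below 5%). Over the whole lists 65.8% of TAF3 peaks, 79.5% of H3K4me3 peaks and 40.7% of RNAPII peaks passed. The pooled RNAPII share at the members is near its background, but MDM2 weighs heavily on it. MDM2 held 20 of the 44 RNAPII peaks and 18 of the 24 that did not pass, and without it the share would be higher. Of all H3K4me3 peaks, 82.6% overlapped both a TAF3 and an RNAPII peak. That share is over peaks and not over genes, and the share of other genes with all 3 kinds of peak was not computed here, because the annotation at hand is on another build than the peaks.

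**Figure D1:**
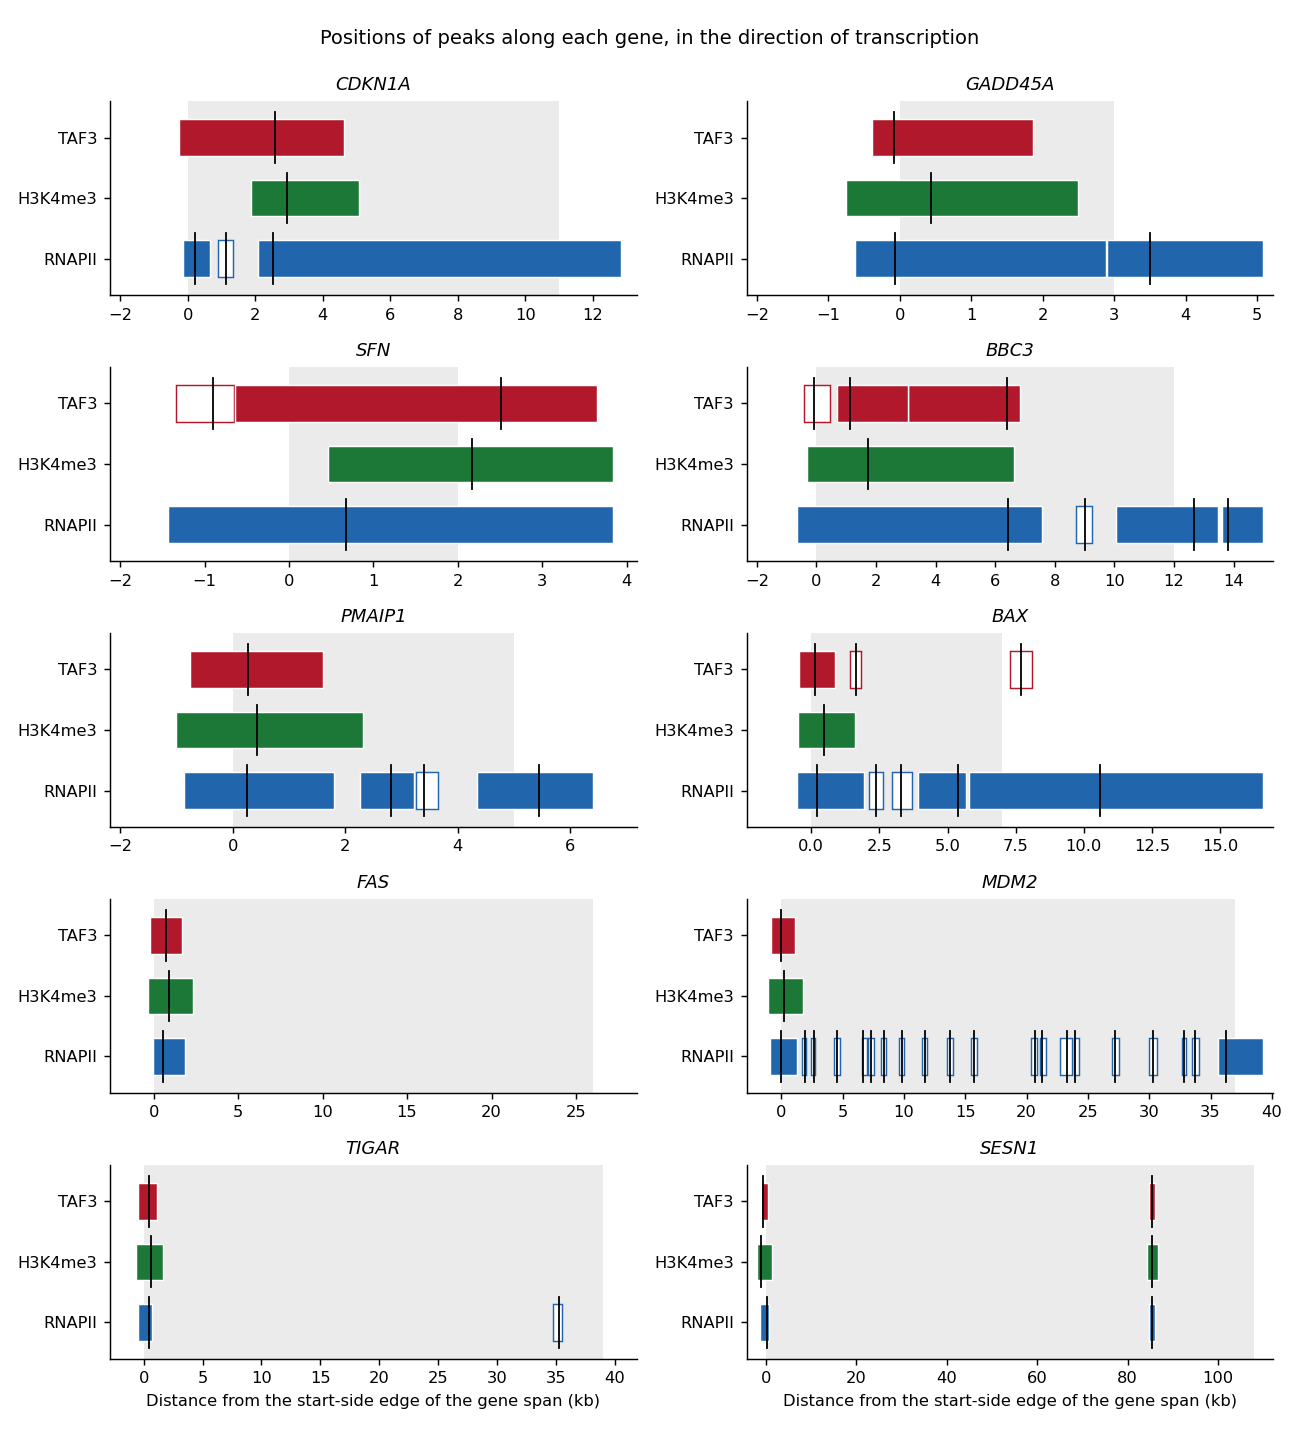
Peaks at each of the 10 genes, drawn to scale in kb from the start-side edge of the gene span (grey) and in the direction of transcription. Filled boxes passed the authors' filter, open boxes did not, and black lines are summits. In CDKN1A, GADD45A, SFN, BBC3, PMAIP1 and BAX RNAPII peaks ran along most of the gene, and in FAS, TIGAR and SESN1 they lay at starts with 1 weak exception in TIGAR.

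The genes of cell cycle arrest and growth control, CDKN1A, GADD45A and SFN, had TAF3 peaks of 67.4- to 126-fold enrichment and RNAPII peaks of 163- to 231-fold. Fold enrichment is a ratio from the peak caller, in which the height of a peak at its summit is divided by the background expected there from the input. CDKN1A encodes p21, an inhibitor of cyclin-dependent kinases. Its only TAF3 peak, at chr6:36643741-36648634, held 718 tags at 67.4-fold and spanned 4894 bp, wider than or as wide as 99.8% of all TAF3 peaks. The peak runs from the start-side edge of the span over the summit at 36646578, 2578 bp into the span. An RNAPII peak of 221-fold and 2233 tags began near that summit, at 36646076, and continued without a break to 36656833, past the far end of the gene. Toward the start-side edge lay a small separate RNAPII peak with its summit at 36644216, with 12.1-fold enrichment, 70 tags and a false discovery rate of 4.61%, inside the TAF3 peak and outside the H3K4me3 peak. In RefSeq the noncoding RNA gene DINOL overlaps CDKN1A and PANDAR, another, lies 1337 bp from it on GRCh38.p14, and to which of these genes the small peak or the wide TAF3 peak belongs was not tested. H3K4me3 covered chr6:36645881-36649075 with 1351 tags at 121-fold.

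GADD45A, which encodes a small stress protein that restrains growth and takes part in DNA repair, stood high in all 3 lists. Its TAF3 peak at chr1:68150608-68152859 had 126-fold enrichment and 661 tags, at or above 99.4% of the TAF3 list. RNAPII reached 231-fold with 1270 tags at chr1:68150369-68153881, and a further RNAPII peak of 66.45-fold with 463 tags followed directly, at chr1:68153902-68156088, over the end of the gene and beyond it. H3K4me3 stood at 204-fold with 1537 tags, at or above 90.1% of its list. These are the most H3K4me3 tags per kb of peak among the members, 472 (95% interval 449 to 496).

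SFN encodes 14-3-3 sigma, an epithelial protein that holds cells before mitosis. Its main TAF3 peak, chr1:27188366-27192653, held 822 tags, the most of any member, at 84.3-fold, and was 4288 bp wide. The RNAPII peak was wider still, at chr1:27187572-27192841, with 1714 tags at 163-fold, and covered the whole gene. By fold enrichment H3K4me3 at SFN was the lowest of the members, 80.8-fold, and the only one under the median of its list. Its 1202 tags lay at or above 87.8% of the list, and its tags per kb of peak at or above 74.3%. The H3K4me3 peak began at 27189464, so the upstream part of the TAF3 and RNAPII peaks lay outside the marked region. A further TAF3 peak of 6.12-fold with 32 tags, just upstream, did not pass the filter.

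The cell death genes BBC3, PMAIP1, BAX and FAS covered the whole range of the members, from 28.4-fold to 131-fold for TAF3. PMAIP1 encodes NOXA, a BH3-only protein that neutralises pro-survival BCL2 relatives. It had the highest TAF3 and RNAPII fold enrichment of the 10 genes, 131-fold with 490 tags at chr18:57566246-57568598 for TAF3 and 245-fold with 825 tags at chr18:57566141-57568807 for RNAPII. Both values lay at or above 99.5% of their lists. H3K4me3 was 218-fold with 1187 tags, and an RNAPII peak of 58.0-fold with 332 tags lay over the end of the gene at chr18:57571342-57573406.

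BBC3 encodes PUMA, another BH3-only protein. Its TAF3 signal was split into 3 peaks that grew stronger from the start of the gene inward. At the start-side edge the peak was 7.30-fold with 41 tags and a false discovery rate of 17.1%, outside the filter. The next, chr19:47732922-47735307, had 15.1-fold and 172 tags. The strongest, chr19:47729154-47732915, had 68.3-fold and 542 tags, with its summit at 47729596, 6404 bp inside the start-side edge. RNAPII had its summit 23 bp from there, at 47729573, in a peak of 207-fold and 2842 tags that ran 8224 bp from 47728442 to 47736665. H3K4me3 formed a single peak of 6941 bp, wider than or as wide as 99.9% of that list, with 1883 tags at 131-fold and its summit at 47734258, near the other end. The microRNA genes MIR3190 and MIR3191 lie inside BBC3 in RefSeq, and whether the inner TAF3 summit belongs to a start of theirs or of BBC3 was not tested.

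BAX encodes the protein that opens the mitochondrial outer membrane. Its TAF3 peak at the start, chr19:49457565-49458885, had 34.4-fold enrichment and 143 tags (95% interval 121 to 168), the fewest of any main TAF3 peak. The RNAPII peak at the start was 88.5-fold with 427 tags, and H3K4me3 there was 168-fold with 854 tags. The strongest RNAPII peak that touched BAX, 180-fold with 2706 tags at chr19:49463805-49474586, has its summit at 49468583, outside the gene and its margin. FTL, the ferritin light chain gene, is the next gene downstream in RefSeq, 3511 bp from BAX on GRCh38.p14, and that summit lay beside a TAF3 peak of 81.8-fold with its summit at 49468631. The 180-fold value therefore describes the region beyond BAX, and the value at the BAX start is 88.5-fold.

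FAS encodes a death receptor of the cell surface. By fold enrichment it had the weakest TAF3 and RNAPII peaks of the 10 genes together with a strong H3K4me3 peak. TAF3 at chr10:90749769-90751671 was 28.4-fold with 199 tags (95% interval 172 to 229), at or above 56.3% of its list. RNAPII at chr10:90749946-90751855 was 55.2-fold with 340 tags, at or above 81.6% of all RNAPII peaks, but at or above only 33.3% of those that overlap a TAF3 peak. H3K4me3 was 193-fold with 1032 tags, at or above 87.6% of its list and nearly equal to TIGAR, where TAF3 was 68.9-fold and RNAPII 168-fold. FAS overlaps ACTA2 in RefSeq, and the peaks cannot be assigned to either gene alone.

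MDM2, the ubiquitin ligase that degrades p53 and closes a negative feedback loop, had the highest H3K4me3 fold enrichment of the members, 255-fold with 989 tags at chr12:69200896-69203728, at or above 98.5% of that list. TAF3 was 65.3-fold with 235 tags at chr12:69201172-69203147 and RNAPII 184-fold with 539 tags at chr12:69201059-69203277. TAF3 and RNAPII summits were 2 bp apart, at 69201997 and 69201999. The annotated MDM2 starts span 852 bp on GRCh38.p14 and the TAF3 peak is 1976 bp wide, so the deposited lists give a single peak where the gene has an upstream and an intronic promoter. Beyond this peak MDM2 held 19 further RNAPII peaks, of which 18 did not pass the filter, with 10 to 46 tags each. The other, over the end of the gene at chr12:69237604-69241299, was 15.0-fold with 216 tags. CPM overlaps this end of MDM2 in RefSeq.

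TIGAR and SESN1, which act in metabolism and stress defence, had peaks at annotated starts and little elsewhere. TIGAR encodes a phosphatase that slows glycolysis. Its TAF3 peak at chr12:4429506-4431171 was 68.9-fold with 242 tags, its RNAPII peak at chr12:4429555-4430743 was 168-fold with 427 tags, and H3K4me3 was 194-fold with 868 tags. Far inside the gene 1 further RNAPII peak had 4.54-fold and 40 tags, under the filter.

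SESN1 encodes a sestrin, which restrains mTORC1 signalling and oxidative damage. It was the only member with H3K4me3 peaks at separate starts. At the distal start H3K4me3 was 183-fold with 934 tags, TAF3 at chr6:109415412-109417174 was 32.7-fold with 214 tags and RNAPII was 120-fold with 600 tags. At the inner start, about 85 kb into the span, H3K4me3 was 117-fold with 708 tags, TAF3 at chr6:109329916-109331241 was 19.5-fold with 129 tags and RNAPII was 80.7-fold with 290 tags. All 3 values were lower at the inner start. RefSeq places starts of SESN1 85858 bp apart on GRCh38.p14. CEP57L1 begins 317 bp beyond the distal end of SESN1 there, and the TAF3 summit at 109416701 lay outside the rounded span on that side, which ends at 109416000. The H3K4me3 summit at 109417055 lay outside it as well, and the distal peaks cannot be assigned to either gene alone.

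Set beside the full lists by fold enrichment, the strongest peaks of the members were high for TAF3 and RNAPII and less so for H3K4me3. The median over the 10 genes was 67.9-fold for TAF3 (28.4 to 131), 188-fold for H3K4me3 (80.8 to 255) and 182-fold for RNAPII (55.2 to 245, or a median of 176 with the BAX start in place of the peak beyond BAX). The list medians were 24.4, 103.5 and 12.0. Above the list median lay 10 of 10 members for TAF3, where 50.0% of all peaks do, 9 of 10 for H3K4me3 (50.0%) and 10 of 10 for RNAPII (48.2%). Against the filtered lists the counts were 7 for TAF3, 8 for H3K4me3 and 10 for RNAPII, so the lower place of H3K4me3 depends on the list. By tags per peak and by tags per kb of peak, all 10 members lay above the full-list median for each antibody. A gene was represented by its strongest peak and the lists hold every peak, and this alone raises the members' values. Among TAF3 peaks with both partners 9 of 10 members were above the median, and among peaks overlapping TAF3 8 of 10 for H3K4me3 and 9 of 10 for RNAPII. FAS lay below the median for TAF3 and for RNAPII, and CDKN1A and SFN for H3K4me3.

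**Figure D2:**
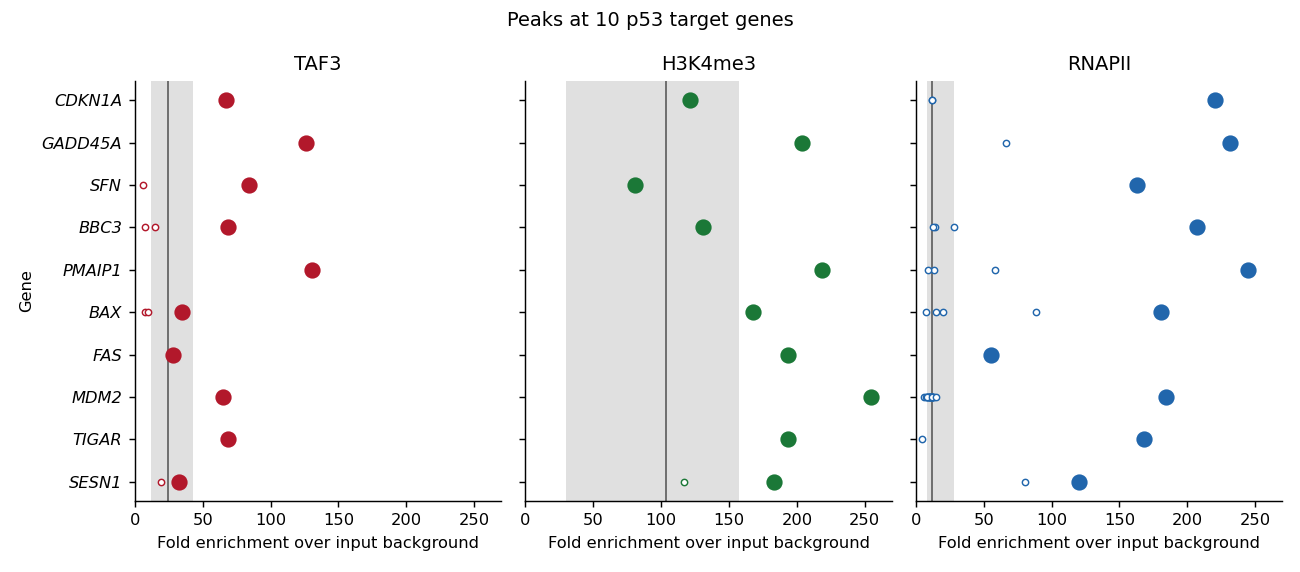
Fold enrichment over the input background for peaks at each gene, 1 panel per antibody. Large points are the strongest peak of a gene and small open points its other peaks, the line is the median of the whole list and the grey band its quartiles. FAS is lowest for TAF3 (28.4) and RNAPII (55.2) and high for H3K4me3 (193), while SFN is lowest for H3K4me3 (80.8). The large RNAPII point of BAX (180) has its summit beyond the gene.

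The order of the genes depended on the antibody and on the measure. For TAF3, PMAIP1 led by fold enrichment (131-fold), GADD45A by tags per kb and SFN by tags (822). For RNAPII, PMAIP1 led by fold enrichment (245-fold), GADD45A by tags per kb (362) and BBC3 by tags (2842), and CDKN1A stood high by fold enrichment (221-fold) and low by tags per kb (208), where its peak spans the gene. By TAF3 tags per kb of peak GADD45A was first with 294 (95% interval 272 to 317), followed by PMAIP1 with 208 (190 to 228) and SFN with 192 (179 to 205), whose intervals overlap. CDKN1A, TIGAR and BBC3 followed at 147, 145 and 144 and cannot be ordered by their counting error. SESN1, MDM2, BAX and FAS lay at 121, 119, 108 and 105, again with overlapping intervals. Those of SESN1 (106 to 139) and MDM2 (104 to 135) also overlapped that of TIGAR (128 to 165), so these groups are not fully separated. For H3K4me3, CDKN1A was ninth of the 10 by fold enrichment at 121-fold but had 423 tags per kb (401 to 446), more than MDM2 with 349 (328 to 372), which led by fold enrichment. The intervals cover counting error only. Ranked by fold enrichment over the 10 genes, TAF3 correlated with RNAPII at 0.68 (Spearman, 0.78 with the BAX start) and with H3K4me3 at 0.15, and H3K4me3 with RNAPII at 0.28. By tags per kb these were 0.54, 0.22 and -0.14. By tags per peak they were 0.39, 0.77 and 0.44. At BAX, RNAPII enters these values through the peak beyond the gene, with 2706 tags, while the peak at its start held 427. The correlations by tags and by tags per kb were not computed with the BAX start, so no order is drawn from them. The 3 libraries share 1 input, and 10 genes chosen for their function give only a description.

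TAF3 and RNAPII summits lay within 50 bp of each other at 7 of the 10 genes, when each gene was represented by its strongest TAF3 peak. Counted over all 16 TAF3 peaks at the members it was 8 (50.0%), near the 47.6% of all TAF3 peaks in the full list. In the filtered list the share was 54.1%. The distances were 1 bp at GADD45A, 2 bp at MDM2, 15 bp at PMAIP1, 18 bp at TIGAR, 23 bp at BBC3, 38 bp at BAX and 42 bp at CDKN1A. At FAS the distance was 149 bp, at SESN1 858 bp and at SFN 1840 bp. The inner SESN1 start had TAF3 and RNAPII summits 19 bp apart. In SFN the RNAPII summit, at 27189671, lay upstream and the TAF3 summit, at 27191511, past the far end of the span of this short gene. Of all TAF3 peaks, 95.7% had an RNAPII summit as near or nearer.

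At the strongest TAF3 peak of each gene, the H3K4me3 summit lay downstream, in the direction of transcription, at 7 of the 10 genes. The offsets ran from 153 bp at TIGAR to 507 bp at GADD45A. The H3K4me3 summit lay upstream by 337 bp at SFN, by 354 bp at the distal SESN1 start and by 4662 bp at BBC3. The direction at SESN1 is by the strand of SESN1, and its distal peaks cannot be assigned to SESN1 or CEP57L1 alone. At the weaker TAF3 peaks it lay downstream at BBC3 (626 and 1810 bp), the inner SESN1 start (79 bp) and SFN (3071 bp). For those of BAX it lay 1176 bp upstream and 3286 bp downstream. The share over all TAF3 peaks was not computed, because their strand needs an annotation on hg19. The median distance in either direction was 322 bp at the members and 270 bp over the TAF3 list. By the strongest TAF3 peak, the genes with an upstream H3K4me3 summit include BBC3 and SFN, the members with the fewest CG dinucleotides in their windows. They also include SESN1, whose windows held 28 CG dinucleotides at the distal start and 38 and 18 at the inner starts. The strongest TAF3 summit of BBC3 lay 6404 bp inside the start-side edge, and that of SFN lay 2511 bp from it, which is 511 bp beyond the far end of the rounded 2 kb span. CDKN1A, with 29 CG dinucleotides, also had its TAF3 summit 2578 bp inside the edge. The starts used for the sequences of BBC3, SFN, SESN1 and CDKN1A are on GRCh38.p14, and their places in the hg19 spans were not determined. No sequence was read at the peaks, so the CG counts do not describe the sequence under the TAF3 or H3K4me3 summits.

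**Figure D3:**
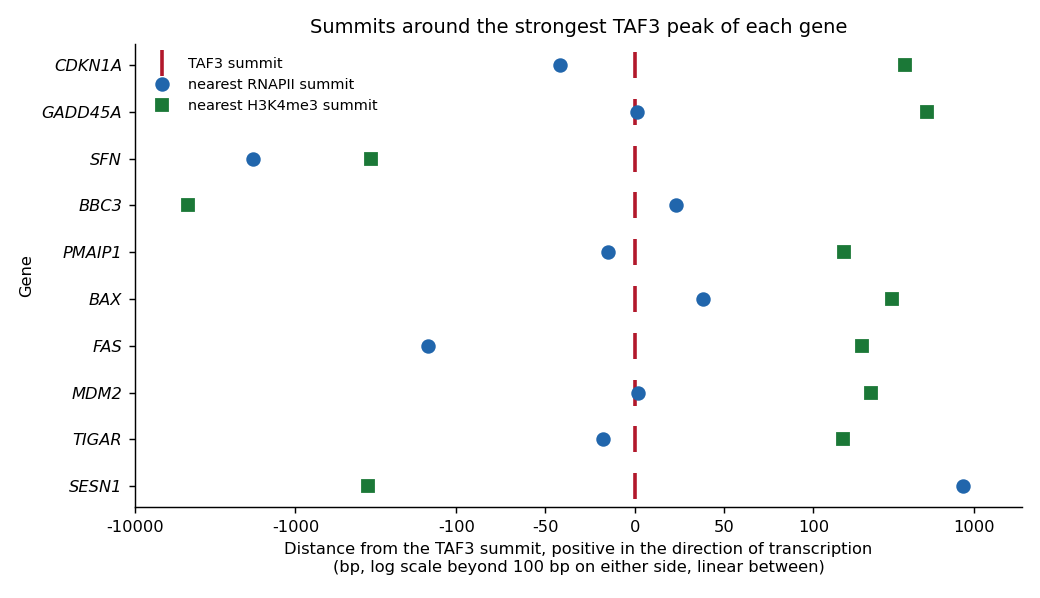
Distance in bp from the summit of the strongest TAF3 peak of each gene to the nearest RNAPII summit (circles) and H3K4me3 summit (squares), positive in the direction of transcription, on an axis that is linear to 100 bp and logarithmic beyond. RNAPII summits are within 50 bp at 7 genes. H3K4me3 summits are 153 to 507 bp downstream at 7 genes, with SFN, BBC3 and SESN1 on the other side. The direction at SESN1 is by its own strand, and its distal peaks cannot be assigned to SESN1 or CEP57L1 alone.

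RNAPII peaks lay over the start-side edge of all 10 genes and over the opposite end of 7, chosen as a measure after the peaks were seen. The share of other genes with RNAPII over the start or the end was not computed, so these counts have no background beside them. The 3 members with none at the end were FAS, TIGAR and SESN1. All 3 arrest and growth genes and MDM2 had RNAPII over the end, as did 3 of the 4 death genes. At BAX the peak over the end is the one whose summit lies beyond the gene, and without it 6 remained. CPM overlaps MDM2 in RefSeq, and to which of them the peak over the MDM2 end belongs was not tested. RNAPII peaks covered 100% of the span of SFN, 99.3% of GADD45A, 91.2% of CDKN1A, 87.3% of BAX, 83.7% of BBC3 and 76.4% of PMAIP1. The share was 30.9% at MDM2, 7.14% at FAS, 3.99% at TIGAR and 1.75% at SESN1. That of BAX includes the part of the span under the peak whose summit lies beyond the gene, and the share without this peak was not computed. Most RNAPII peaks along MDM2 were under the filter. The 6 most covered spans were 2 to 12 kb long and the other 4 were 26 to 108 kb. Within these groups the order did not follow length. PMAIP1, with 5 kb, had the lowest share of the 6, and MDM2, with 37 kb, had a higher share than FAS, with 26 kb. The part of gene length in this order was not tested. MDM2, with a 37 kb span, had RNAPII at its end and FAS, with 26 kb, had none, while with filtered peaks their covered shares were 7.23% and 7.14%.

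**Figure D4:**
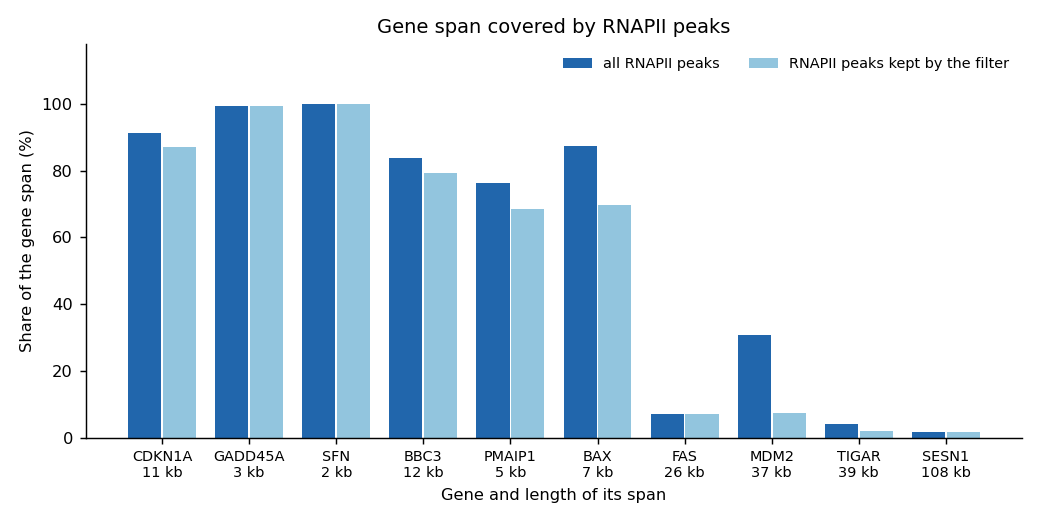
Share of each gene span covered by RNAPII peaks, in percent, for all deposited peaks and for those kept by the authors' filter, with span lengths under the names. The 6 genes of 12 kb or less were covered for 76.4% or more by all peaks, and the 4 longer genes for 30.9% or less. The bars of BAX include the peak whose summit lies beyond the gene.

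Without the 2 kb margin 14 TAF3, 11 H3K4me3 and 43 RNAPII peaks were found. The TAF3 peaks that entered only through the margin were those of 10.1-fold beyond the end of BAX and 6.12-fold upstream of SFN, both under the filter. The RNAPII peak that did so lay at BBC3, chr19:47721003-47722401, with 14.02-fold and 59 tags. Just outside lay an RNAPII peak 124 bp beyond the GADD45A margin with 13.6-fold, an RNAPII peak 431 bp beyond that of MDM2 with 22.7-fold and 39 tags, an RNAPII peak 910 bp beyond that of SFN with 10.85-fold and 228 tags, and the TAF3 peak next to BAX with 81.8-fold, 926 bp beyond the margin.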

How the data were processed

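Immunoprecipitated DNA of HCT116 cells was sequenced in 1 library each for TAF3, H3K4me3 and RNAPII, with 1 input library. Groups follow the sample titles. CASAVA 1.8.2, MACS 1.4.2 and hg19 are named in the submitters' processing notes. No source used here gives the aligner's settings. Each antibody was called against the same input at a p cutoff of 1e-05, per the file headers, with at most 1 tag kept per position, which bounds the tags at dense places. After that step 17411155 TAF3, 12560129 H3K4me3, 16841238 RNAPII and 19185386 input tags were left.

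The authors deposited a count of tags per peak, not scaled to depth, a fold enrichment (a ratio to local background), a score (-10 times log10 of the p-value) and a false discovery rate in percent. The filtered lists the authors deposited were checked and equal a fold above 5 with a rate below 5%. All per-peak values are the authors' and only rank peaks within a list.

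Computed here were overlaps of at least 1 bp, percentiles within lists, summit distances, covered shares and exact Poisson 95% intervals on tags, which cover counting error only. All 10 members are named, each with its strongest peak by fold enrichment. The members and lists were chosen with earlier results of these data known. Strands came from the RefSeq promoter table, and for GADD45A from general knowledge. A further list of p53 pathway genes needed an hg19 annotation and was not used here. Python 3.11.15, pandas 2.3.3, numpy 2.4.6, scipy 1.17.1 and matplotlib 3.10.9 were used. Overlap and summit functions were tested on simulated data, partly against bedtools 2.31.1, and passed 12 of 12 checks.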

Additional observations from a re-analysis of the deposited data

How the results depend on the processing

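Of 45 alternative counts, 44 were within 1.5 times the reported count. Most were counts of members, which cannot exceed 10, so this limit was hard to break. A fall from 10 to 7 members, for TAF3 against the filtered list, counted as within it. All 10 members kept TAF3, H3K4me3 and RNAPII peaks with filtered lists, no margin, a 5 kb margin and summits required inside the window. The exception was the number of RNAPII peaks at the members, which fell from 44 to 20 with the filtered lists. Against the filtered lists 7 of 10 members lay above the median for TAF3, 8 for H3K4me3 and 10 for RNAPII. The counts of RNAPII peaks over gene ends, and the comparisons with peaks that overlap TAF3 or both partners, were chosen after seeing the data. No paired analysis was possible because each antibody has 1 library, and no library could be left out. The peaks under the filter along MDM2 rest on 10 to 46 tags each, and no other depth was tried.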

Other observations

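RNAPII and TAF3 peaks also lay near the genes, outside the 2 kb margin. Within 20 kb of the spans there were 7 TAF3 peaks, of which 1 passed the authors' filter, 5 H3K4me3 peaks (2 passed) and 39 RNAPII peaks (11 passed). The TAF3 peak that passed was the one beside BAX. Upstream of CDKN1A, an RNAPII peak at chr6:36634559-36635514 had 55.5-fold enrichment and 138 tags, with its summit at -8.91 kb relative to the start-side edge of the span. It overlapped a TAF3 peak of 16.4-fold with 34 tags and a false discovery rate of 10.7%, outside the filter, and no H3K4me3 peak. Their summits were at 36635087 and 36635065.

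Beyond PMAIP1, an RNAPII peak at chr18:57585610-57586118 had 30.0-fold enrichment and 61 tags, and overlapped a TAF3 peak of 10.85-fold with 24 tags, outside the filter, and no H3K4me3 peak. Their summits, at 57585845 and 57585838, were 18.8 kb from the start-side edge. Beyond GADD45A, at chr1:68165229-68167092, RNAPII was 27.1-fold with 133 tags, with a TAF3 peak of 9.05-fold and 14 tags and an H3K4me3 peak of 9.26-fold and 13 tags, both outside the filter. No gene was assigned to these places.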
